A study of Mus musculus with 7 samples.

Results

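The genes described here encode subunits of the SWI/SNF (BAF and PBAF) complexes and of the other ATP-dependent chromatin remodellers. They were taken by symbol from a list of 45 genes, each of which matched a single Ensembl ID among the 39179 in the deposited table. The list holds 26 BAF/PBAF genes, 5 ISWI genes, 10 CHD/NuRD genes, 3 genes grouped as INO80 and Hells, also called LSH. RNA was sequenced from flow-sorted LSK cells, the bone marrow fraction without lineage markers that is positive for Sca-1 and Kit and includes blood stem cells and multipotent progenitors. All mice were C57/BL6 and 7 weeks old. The 3 Jmjd1c libraries came from Jmjd1c f/f Vav1Cre mice and the 4 control libraries from Vav1Cre mice, so both groups carry the Cre transgene. The Vav1 promoter drives Cre throughout the blood system and also in some endothelial cells. Nothing in the labels tells whether each library is a separate animal, so p-values reflect the variation among these 7 libraries alone, which may be technical.

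A chromatin remodeller spends ATP to slide, evict or exchange nucleosomes, through a motor subunit of the SNF2 type. BAF complexes open enhancers and promoters, ISWI complexes space nucleosomes, the NuRD complex joins a CHD motor to histone deacetylases, and the INO80 family includes motors that exchange the histone variant H2A.Z. BAF and NuRD subunits are known for their part in the maintenance of blood stem cells and in the choice of lineage. JMJD1C belongs to the KDM3 family of JmjC-domain proteins, which includes histone demethylases.

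The upstream sequences of Smarca2, Smarca4 and Smarcc2 are shown because these are the 3 members that passed the test in the comparison below. They are from RefSeq (GRCm38.p6, plus strand) and end before the transcription start: chr19:26604910-26605049 for Smarca2, chr9:21615919-21616168 for Smarca4 and chr10:128458986-128459235 for Smarcc2. Capitals mark matches on either strand to the GC box GGGCGG, the ETS core CCGGAA, the CCAAT box CCAAT or the E box CACGTG.
Smarca2: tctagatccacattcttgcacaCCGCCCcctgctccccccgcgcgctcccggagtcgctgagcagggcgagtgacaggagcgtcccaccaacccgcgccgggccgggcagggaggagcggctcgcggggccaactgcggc
Smarca4: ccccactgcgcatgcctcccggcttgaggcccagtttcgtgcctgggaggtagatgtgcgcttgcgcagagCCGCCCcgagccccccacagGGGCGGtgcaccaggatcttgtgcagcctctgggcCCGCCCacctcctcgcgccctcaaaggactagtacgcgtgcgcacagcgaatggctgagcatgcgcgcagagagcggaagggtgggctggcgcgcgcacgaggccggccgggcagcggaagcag
Smarcc2: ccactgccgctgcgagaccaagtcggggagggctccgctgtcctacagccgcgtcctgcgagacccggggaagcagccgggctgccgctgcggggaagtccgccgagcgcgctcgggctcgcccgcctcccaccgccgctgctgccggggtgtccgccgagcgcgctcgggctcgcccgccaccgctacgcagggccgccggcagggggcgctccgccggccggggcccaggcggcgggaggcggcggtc

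The RefSeq window of each gene is the 250 bases before its start, and the Smarca2 run is cut to 140 bases because the other 110 lie within the gene in GENCODE M21. The Smarca4 window held 3 GC boxes, the Smarca2 window 2 GC boxes (1 of them in the printed run) and 1 ETS core, and the Smarcc2 window none of the 4 motifs. Of 32851 RefSeq windows of this length, 32.7% held the GC box, 12% the ETS core, 33.8% the CCAAT box and 6.02% the E box. The G and C content was 68.4% for Smarca2, 70.8% for Smarca4 and 80.8% for Smarcc2, beside a median of 52.4% over all windows. The windows held 28, 25 and 40 CpG dinucleotides in the same order, beside a median of 6. A match is a match of letters only. An entry was found for 35 of the 45 members.

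Values are normalized read counts, that is, reads per gene divided by a size factor for the library. Reads in genes ranged from 4303712 to 6436519 per library. Jmjd1c itself stood at 458, 466, 516 and 512 in controls 1 to 4 and at 294, 244 and 254 in Jmjd1c 1 to 3. The groups did not overlap, and Jmjd1c fell by 0.89 ± 0.09 on the log2 scale (limma, adjusted p = 0.00407), counted over all its exons. The genes for the sort markers Kit and Sca-1 (Ly6a) were present in every library, Kit at 4778 to 6700 in control and 5880 to 7268 in Jmjd1c libraries and Ly6a at 694 to 915 and 728 to 839. The progenitor marker Cd34 was at 7850 to 8564 and 8003 to 8815. Marker sums of B cells (40.8 to 58.6 against 8.24 to 23.2), neutrophils (6819 to 9507 against 4601 to 6539) and basophils or mast cells (5479 to 8460 against 2064 to 4413) lay lower in every Jmjd1c library than in any control. Those of plasma cells (8324 to 18363 against 3168 to 11056), macrophages (1310 to 6210 against 1294 to 2328), T cells (7.20 to 27.1 against 7.04 to 17.5) and erythroid cells (154 to 247 against 177 to 254) overlapped, and the T cell marker Cd3e was at 0 in 1 library. With an unadjusted limma p under 0.05, 3 of 4 plasma cell, 3 of 3 B cell, 3 of 4 neutrophil, 1 of 5 macrophage and 2 of 3 basophil or mast cell markers were lower and 1 of 4 erythroid markers was higher. Over all tested genes, 7.84% were lower and 11.9% higher at that p, and 7.10% had every Jmjd1c value below every control. After adjustment over all tested genes, the plasma cell marker Igha (log2 fold change -2.29, adjusted p = 0.0376, limma) and the basophil marker Prss34 (-1.12, adjusted p = 0.0410) were called lower. The part of these cells in the results below was not tested. In bulk RNA, fewer cells of a type and less RNA per cell cannot be told apart.

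Most remodeller genes were readily measured in LSK cells, and their levels per kilobase of exon spanned a wide range. The highest control levels were those of Actl6a, the actin-like BAF subunit of dividing cells, at 299 ± 17.3 normalized read counts per kb (SD, n = 4), of the NuRD scaffold Mta2 at 263 ± 21.9 and of the PHD-finger BAF subunit Dpf2 at 214 ± 9.71. The next 7 in order, Smarcb1, Brd7, Ss18, Smarce1, Bcl7b, Chd4 and Mta3, lay between 135 and 104, and neighbours among them differed by less than their spread. Among the motors, Chd4 had 109 ± 4.32, Hells 92.9 ± 9.89, Smarca4 74.0 ± 10.3, Ep400 40.0 ± 2.14 and Smarca5 37.3 ± 3.16 per kb. Smarca2, at 25.1 ± 2.47, was close to Chd2 (27.0 ± 0.905), Chd8 (24.1 ± 0.664) and Chd1 (23.2 ± 1.75). Ino80 (16.8 ± 3.36), Chd9 (15.8 ± 0.920) and Chd3 (15.6 ± 1.86) did not differ beyond their spread, and Srcap (2.94 ± 0.290) and Chd7 (2.55 ± 0.491) were the lowest motors. The length is that of all annotated exons, including rarely used ones, which lowers the level of genes with many of them. For Srcap, 65.0% of exon bases are shared with other annotated genes. How reads there were counted is not given, so its low level may not reflect its expression.

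**Figure D1:**
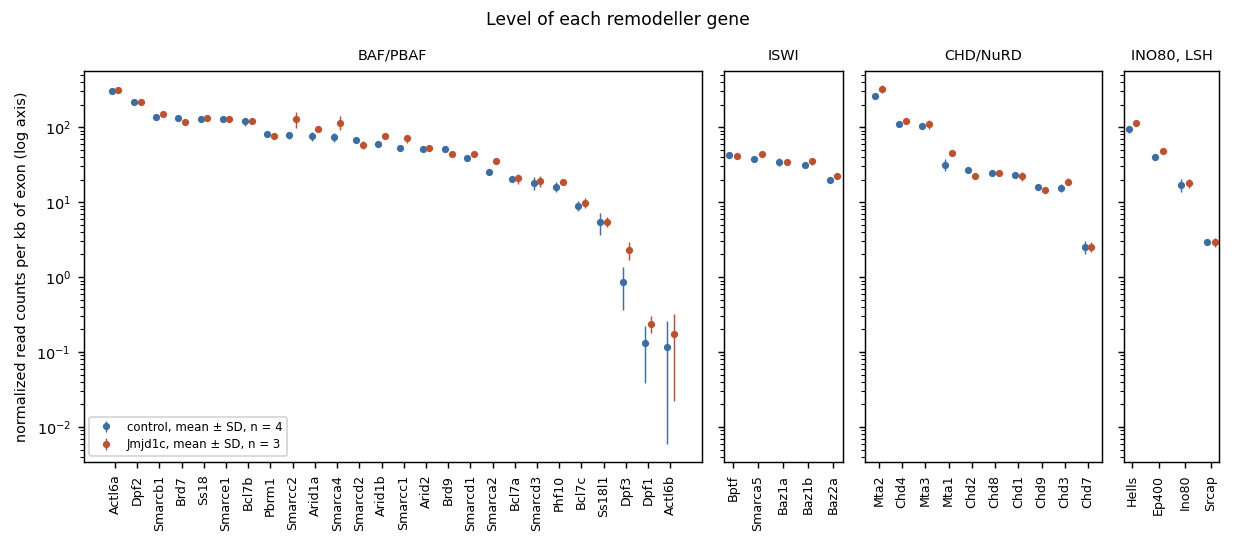
Level of each of the 45 genes in normalized read counts per kb of exon (log axis), as mean ± SD of 4 control and 3 Jmjd1c libraries, by family and in falling order of the control mean. Lower error bars that would reach 0 are stopped at 5% of the mean (Actl6b). The levels run from 299 per kb for Actl6a down to 0.118 for Actl6b. Smarca2, Smarca4 and Smarcc2 are among the genes whose SD bars do not overlap between the groups.

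Both BAF motors and a BAF scaffold were higher in the Jmjd1c libraries. Smarcc2 rose 1.62-fold, Smarca4 1.54-fold and Smarca2 1.42-fold. These were 3 of 42 tested members called higher (7.14%), beside 1.51% of the 12813 genes tested. No member was called lower by limma, beside 0.289% of all genes, while 3 were lower at an unadjusted p under 0.05. A gene is called where its limma p-value, adjusted by Benjamini-Hochberg over all tested genes, is under 0.05. With an unadjusted limma p under 0.05, 12 members (28.6%) were higher, beside 11.9% of all genes, and the 3 lower (7.14%) compare with 7.84%. The Jmjd1c values lay above every control value in 12 members (28.6%, beside 9.74% of all genes) and below in 3 (7.14%, beside 7.10%). These shares compare unlike genes, as the median value was 411 normalized read counts for the members and 159 over all tested genes. The part of level in them was not tested, and the list was chosen with earlier results of these data known. The median log2 fold change of the 42 members was 0.088, against -0.008 over all tested genes, and 30 members were above 0. By family, the medians were 0.080 for 23 BAF/PBAF genes, 0.165 for 5 ISWI genes, 0.037 for 10 CHD/NuRD genes and 0.099 for 3 INO80 genes. The count of members called higher was 0 without control 2, control 3, Jmjd1c 2 or Jmjd1c 3. It was 1 without control 1, 2 without control 4 and 5 without Jmjd1c 1. Over all tested genes, the same fits called 0, 0, 0, 1, 55, 168 and 514 higher, in that order, beside 194 in the main fit. After a correction for transcript GC content and length, the count of members was also 0, beside 55 of all tested genes. There, 13 members had an unadjusted limma p under 0.05, beside 2216 of 12677 tested genes.

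**Figure D2:**
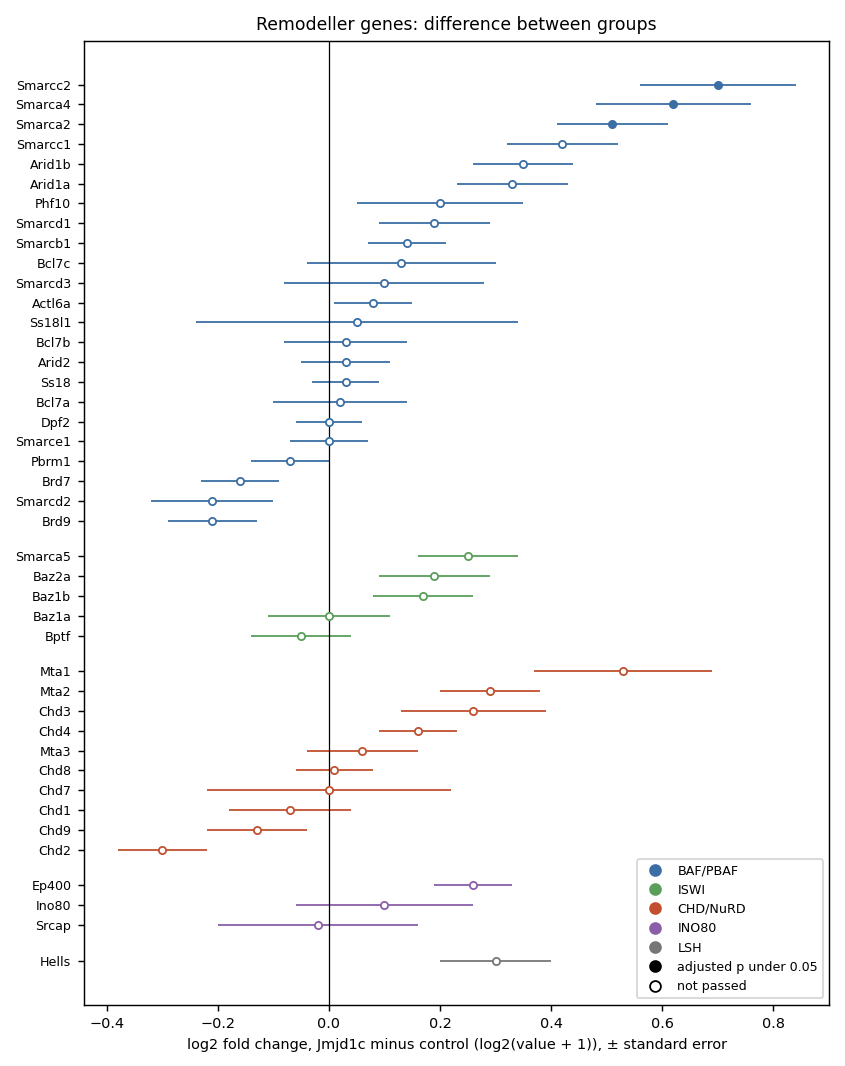
Log2 fold change (Jmjd1c minus control, on the log2(value + 1) scale) with the standard error from limma for the 42 tested members, grouped by family. Filled points have an adjusted p under 0.05: Smarca2, Smarca4 and Smarcc2, at 0.51 to 0.70. The lowest point is Chd2 at -0.30.

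Smarca4 and Smarca2 encode BRG1 and BRM, the alternative motors of BAF complexes. Smarca4 (ENSMUSG00000032187, chr9:21616169-21704230, GRCm38, plus strand) had 573, 477, 420 and 448 normalized read counts in controls 1 to 4 and 579, 764 and 884 in Jmjd1c 1 to 3. The groups did not overlap, but Jmjd1c 1 was only just above control 1. The means were 479 ± 66.6 and 742 ± 154 (SD, n = 4 and 3), and limma gave a log2 fold change of 0.62 ± 0.14 with an adjusted p of 0.0488. Smarca2 (ENSMUSG00000024921, chr19:26605050-26778322, plus strand) had 390, 372, 361 and 308 in the controls and 463, 539 and 522 in the Jmjd1c libraries. All 3 Jmjd1c values were clear of the controls, with means of 358 ± 35.2 and 508 ± 40.2 and differed by 0.51 ± 0.10 on the log2 scale, with an adjusted p of 0.0343 from limma. Leaving out single libraries gave 0.48 to 0.79 for Smarca4 and 0.44 to 0.57 for Smarca2. Among these fits, Smarca4 was called only when Jmjd1c 1 or no library was left out. Its adjusted p was 0.0510 with edgeR on the recovered reads, and in limma 0.0508 with TMM scaling and 0.0541 with quantile normalization. DESeq2 on the recovered reads gave an adjusted p of 0.000759, and Smarca4 missed the threshold in 13 of 19 alternative fits. Smarca2 lost its call without control 2 (limma, adjusted p = 0.0649), control 3 (0.104), Jmjd1c 2 (0.2) or Jmjd1c 3 (0.120).

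Smarcc2 and Smarcc1 encode BAF170 and BAF155, the scaffold around which the complex is assembled. Smarcc2 (ENSMUSG00000025369, chr10:128459248-128490482, plus strand) had 437, 496, 411 and 382 in controls 1 to 4 and 526, 760 and 847 in Jmjd1c 1 to 3. The groups did not overlap, and Jmjd1c 1 was again the lowest of its group. The means of 432 ± 48.4 and 711 ± 166 differed by 0.70 ± 0.14 on the log2 scale (limma, adjusted p = 0.0406), the largest difference among the tested members. Leaving out single libraries gave 0.56 to 0.90, and the call was lost without control 1, 2 or 3 or Jmjd1c 2 or 3 (highest adjusted p = 0.215, limma). Smarcc1 had 460, 412, 397 and 380 against 490, 541 and 626, also without overlap. Its log2 fold change of 0.42 ± 0.10 did not pass (limma, adjusted p = 0.0538), and it had means of 412 ± 34.5 and 552 ± 68.7.

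**Figure D3:**
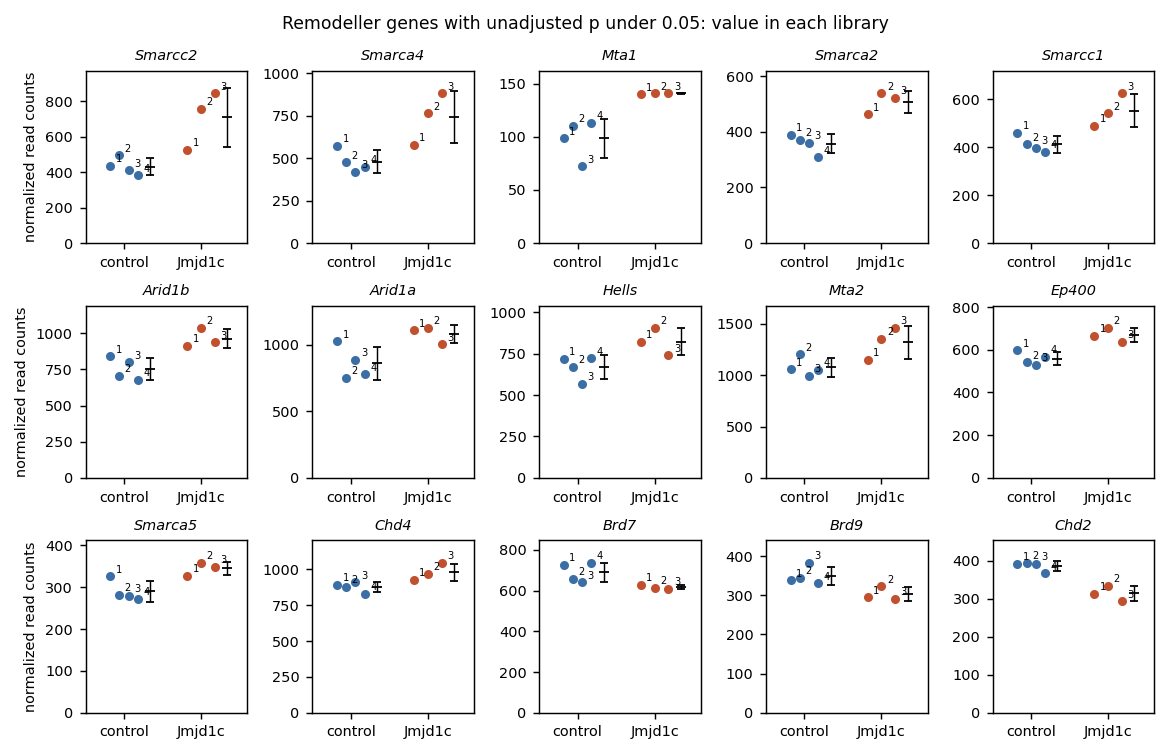
Normalized read counts of the 15 members with an unadjusted limma p under 0.05, one panel a gene, with numbers marking the replicate and bars the mean ± SD of each group. Values of 12 members are higher and of Brd7, Brd9 and Chd2 lower in the Jmjd1c libraries. Jmjd1c 1 is the lowest Jmjd1c library in 9 of the 12 (75.0%), beside 77.6% of all tested genes higher at that p.

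Arid1a and Arid1b encode the alternative ARID subunits that define canonical BAF. Arid1b had 839, 705, 800 and 679 in controls and 913, 1036 and 936 in Jmjd1c libraries. These values did not overlap, and limma gave a difference of 0.35 ± 0.09 with an adjusted p of 0.0604. Arid1a had 1028, 754, 889 and 779 against 1110, 1127 and 1005, so that control 1 fell inside the Jmjd1c range. Its groups differed by 0.33 ± 0.10 on the log2 scale, with an adjusted p of 0.111 from limma. Together with the motors and scaffolds, the ARID1 pair makes 6 genes, all 6 with an unadjusted limma p under 0.05 and a log2 fold change of 0.33 to 0.70. The other 17 tested BAF/PBAF genes ran from -0.21 to 0.20 with a median of 0.03, and 2 had an unadjusted limma p under 0.05, both lower. Over all tested genes, 11.9% were higher and 7.84% lower at that p. This division by role was made after the values were seen, so the 6 of 6 cannot count as a test.

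Those 2 genes are Brd7, the bromodomain subunit of PBAF, and Brd9, that of non-canonical BAF. Brd7 had 725, 658, 641 and 736 in controls and 629, 613 and 609 in Jmjd1c libraries. Every Jmjd1c value was below the controls, with a log2 fold change of -0.16 ± 0.07 that did not pass (limma, adjusted p = 0.251). Brd9 had 338, 345, 383 and 331 against 295, 323 and 291, likewise without overlap, at -0.21 ± 0.08 (limma, adjusted p = 0.213). The other PBAF subunits did not pass: Arid2 had a log2 fold change of 0.03, Pbrm1 (the polybromo subunit) of -0.07 and Phf10 of 0.20.

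Smarcb1 (1068 ± 72.9 against 1178 ± 71.5), Smarce1 (853 ± 43.6 against 853 ± 46.1), Dpf2 (1391 ± 63.1 against 1388 ± 43.5), Actl6a (1160 ± 67.2 against 1226 ± 49.7) and Ss18 (1228 ± 63.9 against 1255 ± 17.5) are further core or accessory subunits of BAF complexes. Their log2 fold changes were between -0.00 and 0.14, and none passed. Of the SMARCD subunits, Smarcd1 was at 155 ± 6.33 and 177 ± 9.92 with no overlap (log2 fold change 0.19), Smarcd2 at 243 ± 23.2 and 210 ± 25.5 (-0.21) and Smarcd3 at 92.5 ± 18.9 and 98.2 ± 15.9 (0.10). Bcl7a, Bcl7b, Bcl7c and Ss18l1 had log2 fold changes of 0.02, 0.03, 0.13 and 0.05. In GENCODE M21, 48.2% of Smarcd3 exon bases, 12.7% of those of Smarcd1 and 11.6% of those of Actl6a lie in exons of other genes as well, and strand use in the counting is not given in the sources used here. In all, 27 tested members had an unadjusted limma p of 0.05 or more, with log2 fold changes of -0.21 to 0.26 and a lowest adjusted p of 0.284.

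Dpf1, Dpf3 and Actl6b, all known from neuronal BAF complexes, did not reach 10 normalized read counts in 3 libraries and were not tested. Dpf1 had 0 to 1 recovered reads in controls and 1 to 2 in Jmjd1c libraries, and Actl6b 0 to 1 in both. Dpf3 had 8, 1, 3 and 4 reads in controls and 15, 7 and 8 in Jmjd1c libraries, or 3.65 ± 2.13 and 9.67 ± 2.61 normalized read counts. Its groups did not overlap after normalization, and with no filter its limma log2 fold change was 1.30 ± 0.50 (adjusted p = 0.252).

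ISWI complexes pair a SNF2H motor, encoded by Smarca5, with large accessory subunits. Smarca5 had 326, 282, 280 and 272 in controls and 327, 358 and 349 in Jmjd1c libraries. Control 1 and Jmjd1c 1 nearly met, and the log2 fold change of 0.25 ± 0.09 did not pass (limma, adjusted p = 0.159). Baz2a, of the nucleolar NoRC complex, was at 213 ± 19.3 and 242 ± 9.16 with no overlap and a log2 fold change of 0.19. Baz1b of WICH (0.17), Baz1a of ACF (0.00) and Bptf of NURF (-0.05) had overlapping groups.

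Of the CHD motors, Chd2, a chromodomain remodeller linked to active transcription, had the lowest log2 fold change of the tested members. It had 393, 395, 392 and 367 in controls 1 to 4 and 314, 335 and 294 in Jmjd1c 1 to 3. No values overlapped, and the log2 fold change of -0.30 ± 0.08 missed the threshold (limma, adjusted p = 0.0720), with 19.3% of its exon bases shared with other annotated genes. Chd4, the main NuRD motor, had 890, 876, 909 and 828 against 927, 970 and 1045. These did not overlap, at 0.16 ± 0.07 on the log2 scale (adjusted p = 0.216, limma). Chd3, the alternative NuRD motor, had 151, 126, 114 and 136 against 139, 166 and 169 with overlap, at 0.26 ± 0.13.

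The remaining CHD motors overlapped between the groups. Chd1 had 184, 197, 218 and 212 in controls and 199, 216 and 167 in Jmjd1c libraries (log2 fold change -0.07 ± 0.11). Chd7 had 32, 29, 35 and 44.6 against 29, 37.1 and 38.7 (-0.00 ± 0.22). Chd7 was among the lowest tested members, and its error is accordingly wide. Chd8 had 414, 392, 401 and 389 against 411, 406 and 390 (0.01 ± 0.07). Chd9 had 346, 362, 396 and 359 against 311, 371 and 322 (-0.13 ± 0.09).

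The MTA proteins are the scaffold of NuRD. Mta1 had 98.4, 110, 72.3 and 113 in controls and 140, 141 and 141 in Jmjd1c libraries. The 3 Jmjd1c values were nearly equal and above all controls, at a log2 fold change of 0.53 ± 0.16 that did not pass (limma, adjusted p = 0.0996). Mta2 had 1060, 1204, 993 and 1053 against 1149, 1356 and 1461, where control 2 exceeded Jmjd1c 1. Limma placed it at 0.29 ± 0.09 on the log2 scale with an adjusted p of 0.119, and that of Mta3 was 0.06 (555 ± 44.6 and 583 ± 84.1).

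Among the INO80 family, Ep400, the motor of the TIP60 complex that deposits H2A.Z, had 597, 542, 529 and 567 in controls and 664, 702 and 638 in Jmjd1c libraries. Its groups were apart, at 0.26 ± 0.07 on the log2 scale (adjusted p = 0.0877, limma). Ino80 had 147, 111, 104 and 95.3 against 123, 137 and 104 (0.10 ± 0.16), and Srcap 44.8, 51.9, 47.8 and 41.1 against 40.5, 52.6 and 44.6 (-0.02 ± 0.18). The groups overlapped for both, and 65.0% of the Srcap exon bases are shared with other annotated genes. Hells, a SNF2 motor required for normal DNA methylation, had 718, 670, 569 and 721 against 820, 905 and 740. The groups did not overlap, and its log2 fold change of 0.30 ± 0.10 did not pass (limma, adjusted p = 0.135).

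Of 63 further genes of these complexes and SNF2-type proteins, 60 were tested and none was called by limma. With an unadjusted limma p under 0.05, 13 were higher (21.7%, beside 11.9% of all genes) and 3 lower (5.0%, beside 7.84%), and their median log2 fold change was 0.008. Those with the 4 smallest p-values were the NuRD subunits Rbbp7 (a histone chaperone, 1816 ± 235 and 2364 ± 171, log2 fold change 0.39 ± 0.10), Mbd3 (129 ± 5.14 and 178 ± 30.4, 0.45 ± 0.13) and Gatad2a (188 ± 15.9 and 258 ± 48.4, 0.44 ± 0.13), and the AAA+ ATPase Ruvbl2 (903 ± 48.8 and 1047 ± 33.2, 0.22 ± 0.07). Their adjusted p-values from limma were 0.0609, 0.0937, 0.0985 and 0.112, and of the 4 only Gatad2a overlapped between the groups.

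The balance between paralogues was compared within each library as the log2 ratio of their values, in 11 pairs. Each difference was tested by exact permutation (two-sided, 35 ways to divide the 7 libraries) and no pair passed. The smallest p this allows is 0.0286, so that 7 pairs at that p would be needed to pass after adjustment. The Smarca2 to Smarca4 ratio was -0.42 ± 0.16 in controls and -0.53 ± 0.22 in Jmjd1c libraries (exact p = 0.514). Per exon length this is 0.341 and 0.317 units of Smarca2 for each of Smarca4. Smarcc1 to Smarcc2 was -0.06 ± 0.15 and -0.34 ± 0.21 (exact p = 0.114), with overlap. Smarcd1 to Smarcd2 was the single pair without overlap, at -0.78, -0.64, -0.72 and -0.42 in controls and -0.35, 0.05 and -0.41 in Jmjd1c libraries. Its difference of 0.40 had an exact p of 0.0571, or 0.377 after Benjamini-Hochberg adjustment over the 11 pairs. The Arid1a to Arid1b ratio differed by -0.02 (exact p = 0.800), Chd3 to Chd4 by 0.10 (0.514), Chd1 to Chd2 by 0.23 (0.114) and Mta1 to Mta2 by 0.24 (0.171). Bcl7b to Bcl7c, Ss18 to Ss18l1, Chd8 to Chd9 and Baz1a to Baz1b differed by -0.10, -0.02, 0.14 and -0.16.

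**Figure D4:**
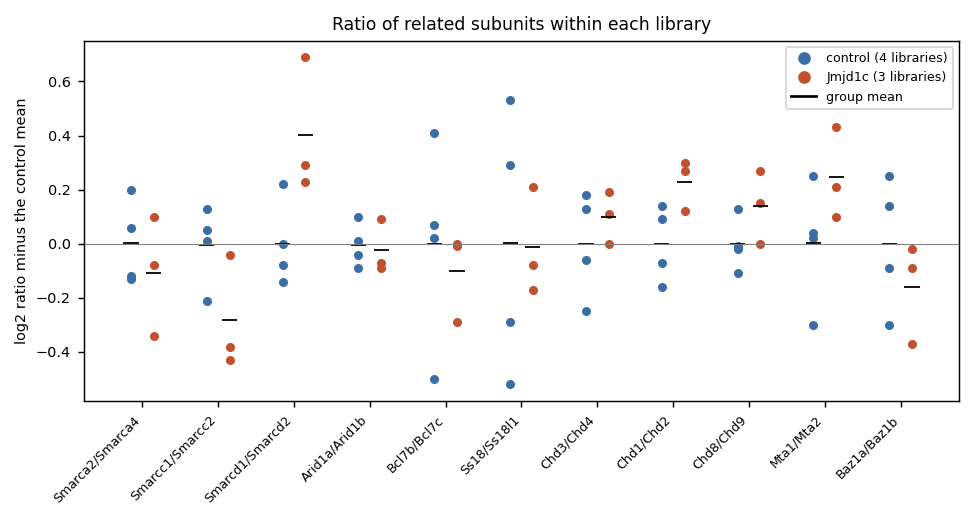
Within-library log2 ratio of the 2 genes of each of 11 paralogue pairs, shown as the difference from the control mean, with one point a library and a black line at each group mean. Smarcd1/Smarcd2 is the only pair in which the groups do not overlap, with a difference of 0.40.

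Members rich in G and C had the higher median fold change. The 22 tested members with transcripts of 50% GC or more lay at a median of 0.177 on the log2 scale, and the other 20 at 0.0209. Across the 42 members, which share the same 7 libraries, the Pearson correlation of fold change with GC content was 0.292, and over 12677 tested genes it was 0.264. After correction for GC content and length, Smarcc2 stood at 0.57 (limma, adjusted p = 0.0658), Smarca4 at 0.45 (0.0922), Smarca2 at 0.45 (0.0594) and Arid1a at 0.14 (0.524). Hells, whose transcript has 37.7% GC, moved the other way, from 0.30 to 0.41 (limma, adjusted p = 0.0658), and Smarca5 from 0.25 to 0.31. Chd2 was at -0.32.

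**Figure D5:**
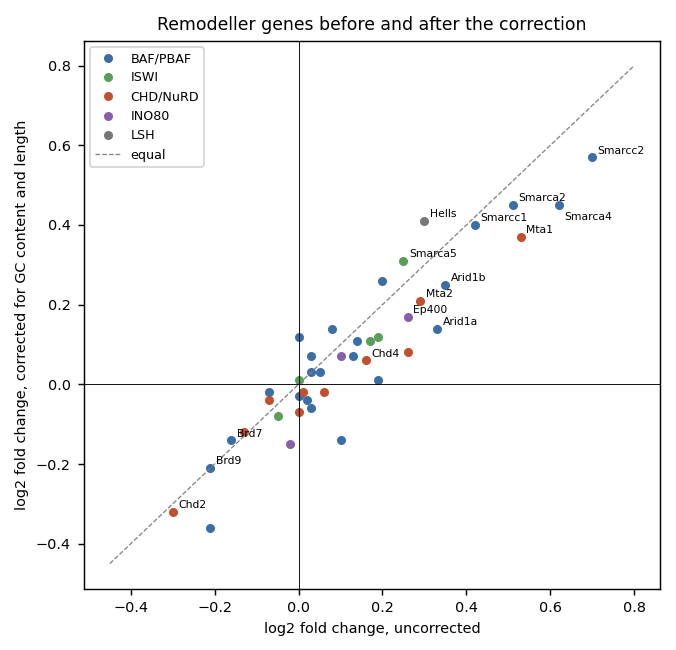
Log2 fold change of the 42 tested members before (horizontal axis) and after (vertical axis) correction for transcript GC content and length, with equality as a dashed line. Smarca4 moves from 0.62 to 0.45 and Arid1a from 0.33 to 0.14, while Hells moves up from 0.30 to 0.41.

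The Jmjd1c libraries were not alike, and Jmjd1c 1 was the lowest in a similar share of the higher members and of all higher genes. Of the 12 members higher at an unadjusted limma p under 0.05, 9 (75.0%) had their lowest Jmjd1c value in Jmjd1c 1, and the highest was in Jmjd1c 2 for 7 and in Jmjd1c 3 for 5. Over all 1524 genes higher at that p, Jmjd1c 1 was the lowest in 77.6%. The highest was Jmjd1c 2 in 31.2% of those genes and Jmjd1c 3 in 64.8%, beside 58.3% and 41.7% of the 12 members.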

How the data were processed

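Normalized signal values for 39179 gene IDs in 7 libraries were deposited by the authors as reads divided by a size factor. Per the submitters' processing notes the tools were Trim Galore 0.2.8, STAR, HTSeq 0.6.1p1 and DESeq 1.18.0 on mm10. The annotation release and strand setting were not stated in any source used. Per the labels' protocols, RNA was amplified with a SMARTer low-input kit. In each library, dividing by the value of 1 read gave whole numbers for 100% of values within 0.01 of a read, so edgeR 4.0.16 and DESeq2 1.42.0 could be run on recovered reads as alternatives (limma made 231 calls, edgeR 233 and DESeq2 590).

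The main test was limma-trend (limma 3.58.1, R 4.3.3) on log2(value + 1), for 12813 genes with at least 10 normalized read counts in at least 3 libraries, with Benjamini-Hochberg adjustment over all of them. Fold changes on that scale understate those of low genes. Exon length, GC content and positions came from GENCODE M21 (GRCm38), and symbols matched 37607 IDs. The GC correction subtracted, per library, natural splines (4 degrees of freedom) of GC content and log2 length. The main limma fit was tested on simulated data. Recovered reads were at least 308 per library for the called members.

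The members and lists were chosen with earlier results of these data known. Values are given by library for members called or with an unadjusted p under 0.05 and for the motors, and of the further genes the 4 with the smallest p-values are named. Alternatives covered pseudocount, filter, scaling, GC correction, tool, trend, replicate block, left-out libraries and threshold.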

Additional observations from a re-analysis of the deposited data

Results flagged for a closer look

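Chd2 in control 4 had 367 normalized read counts, while the other 3 controls had 392 to 395, a gap of 0.889 of the group's range, above Dixon's critical value for 4 libraries. All Jmjd1c values of Chd2 were still lower than control 4. The macrophage markers summed to 6210 in control 4 and to 1310 to 2093 in the other controls, a gap of 0.840. In 61 control groups checked, these were the 2 above the critical value, and chance alone gives about 1 in 20.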

How the results depend on the processing

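Against 3 members called higher, the count was 5 with DESeq2 (Smarcc1 and Arid1b added), 7 at a threshold of 0.1 (with 1 lower, Chd2), and 0 after GC and length correction, in limma without trend, or with a replicate block, where 13, 14 and 13 members had an unadjusted p under 0.05. Over all tested genes, 2216 of 12677, 2213 of 12813 and 1899 of 12693 had such a p in those fits, in the same order. Leaving out a library gave 0 to 5 members called higher. Against 231 genes called in all, there were 71 after GC and length correction, 590 with DESeq2, 716 at 0.1 and 0 in limma without trend (2213 at an unadjusted p under 0.05), and 3 to 631 without single libraries. Against 0 further remodeller genes called higher, there was 1 with DESeq2 (Rbbp7), 3 at 0.1 and 0 to 4 without single libraries. Deviations from the group means had correlations of -0.152, -0.002 and 0.017 in same-numbered libraries, and the highest of any pair was 0.315 (control 4 with Jmjd1c 1). With so few libraries these cannot tell whether the numbers mark a pairing or a batch, and the labels state neither. A fit with the replicate block on replicates 1 to 3 called 15 genes.

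The called members kept their direction in every alternative run. Direction turned in at least 1 alternative for 15 of 42 members, none called and none above 0.096 in size on the log2 scale in the main fit. After GC and length correction these were Smarcd3 (-0.14), Smarce1 (0.12), Bcl7a (-0.04), Bcl7b (-0.06), Chd8 (-0.02) and Mta3 (-0.02). With quantile normalization they were Bcl7a (-0.01), Baz1a (-0.02), Chd7 (0.02) and Chd8 (-0.00). With edgeR and with DESeq2 they were Ss18l1 (-0.02) and Baz1a (-0.01). With the replicate block and on replicates 1 to 3 without it, they were Bcl7a (-0.02), Ss18 (-0.00) and Chd7 (0.12). The ratio difference of Ss18/Ss18l1 was 0.01 with a pseudocount of 10. Leaving out single libraries gave -0.05 to 0.20 for Smarcd3, -0.04 to 0.03 for Smarce1, -0.03 to 0.09 for Arid2, -0.03 to 0.03 for Dpf2, -0.09 to 0.14 for Bcl7a, -0.05 to 0.08 for Bcl7b, -0.00 to 0.06 for Ss18, -0.13 to 0.19 for Ss18l1, -0.08 to 0.07 for Baz1a, -0.11 to 0.02 for Bptf, -0.15 to 0.04 for Chd1, -0.08 to 0.12 for Chd7, -0.00 to 0.03 for Chd8, -0.02 to 0.18 for Mta3 and -0.12 to 0.07 for Srcap. For ratio differences it gave -0.07 to 0.02 for Arid1a/Arid1b, -0.27 to 0.04 for Bcl7b/Bcl7c, -0.19 to 0.16 for Ss18/Ss18l1 and -0.21 to 0.00 for Smarca2/Smarca4. The cause of these changes was not tested.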
